A study of Homo sapiens with 18 samples.

Results

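A group of 10 genes described as targets of the transcription factor p53 with roles in metabolism and redox control was followed across the arrays: TP53I3, GPX1, TIGAR, PRODH, ALDH4A1, SCO2, LPIN1, CPT1C, GLS2 and FDXR. The genes were chosen by name with earlier results of these data known, so counts of them are description and not a test. Each was read from the probe set that carries its symbol alone, taking the brighter probe set on average where a gene had several. This gave 8 measured members among the 18417 genes tested, while GLS2, a mitochondrial glutaminase, and FDXR, the ferredoxin reductase of mitochondria, are not analysed here. TP53I3, TIGAR, SCO2 and LPIN1 had a mean level above that of the median gene in both sets of arrays, and the other 4 measured members lay below it.

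The study used NCI-H1299, a human non-small cell lung carcinoma line that lacks p53, so that p53 came only from the transfected plasmid. Cells were transiently transfected with a GFP vector (pIRES-2EGFP), sorted for green fluorescence, and RNA taken 40 hours after transfection was hybridised to Affymetrix Gene arrays. In the first set, 3 arrays each carried RNA from cells given ΔNp53:WTp53, which pairs the amino-terminally shortened isoform with the full-length protein, from cells given WTp53 alone, and from cells given empty vector, in experiments 0, 4 and 5. In the second set, experiments d, e and f, 3 arrays each carried RNA from cells given tethered WTp53, WTp53 or empty vector. For the tethered arrays the transfection field of the labels names ΔNp53:WTp53 whereas their title and description name tethered WTp53, and the title was followed. All groups are transient transfections of a single line, and how much p53 protein each construct made was not measured on the arrays. The series calls experiments 0, 4 and 5 independent transfections, and experiments d, e and f control experiments, for which it does not state that the cultures were separate. The p-values of the second set therefore measure only the spread between those arrays, which may be technical.

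p53 is best known for arresting or killing damaged cells, but it also acts on metabolism. Through TIGAR and antioxidant enzymes it is described as steering glucose towards the pentose phosphate pathway and limiting reactive oxygen species, whereas other targets, such as TP53I3 and PRODH, produce them. Further targets act in mitochondrial respiration, in proline and glutamine breakdown, and in the handling of fatty acids. The ΔNp53 isoform lacks the first transactivation domain and can form mixed tetramers with the full-length protein.

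Both established p53 targets used as a check responded to every construct. CDKN1A, the p21 cell cycle inhibitor, was higher with ΔNp53:WTp53 than with vector by 3.69 ± 0.26 on the log2 scale (SE), and MDM2, the ubiquitin ligase of p53, by 3.09. With WTp53 of the first set the rises were 4.62 and 3.41. In the second set they were 3.22 and 2.27 with tethered WTp53, and 3.13 and 2.11 with WTp53. Between ΔNp53:WTp53 and WTp53 CDKN1A differed by -0.93 and MDM2 by -0.31, and neither passed. The difference of that change from the tethered effect passed for CDKN1A (-1.02, limma adjusted p = 0.0305) and not for MDM2 (-0.48). Array medians lay at 4.89 to 4.97 for experiments 0, 4 and 5 and at 7.01 to 7.07 for experiments d, e and f, and levels are compared only within a set. The median over genes of the SD within a group was 0.151 with ΔNp53:WTp53, 0.109 with WTp53 and 0.104 with vector in the first set, against 0.0693 with tethered WTp53, 0.0493 with WTp53 and 0.0557 with vector in the second. Of the 6 genes listed for carcinoma KRT8 rose with ΔNp53:WTp53 against vector. KRT8, CDH1 and VIM rose with tethered WTp53 and with WTp53 against vector in the second set, and KRT19 with tethered WTp53 against WTp53. CDH1 lay there at 5.91 with vector, 6.08 with tethered WTp53 and 6.09 with WTp53, below the array medians. With vector of the first set EPCAM (2.95), CDH1 (3.56) and KRT19 (4.70) also lay below the array medians. KRT8 (9.02), KRT18 (10.32) and VIM (10.9) lay well above them there. The levels of the list thus went both ways, and it is not read as a sign of epithelial identity. Of the 6 leukocyte markers, CD79A and TYROBP rose with WTp53 against vector in the first set, where the mean level of the list lay between 4.57 and 4.59 with WTp53 and between 4.34 and 4.48 with vector. In the second set CD14 fell with tethered WTp53 (-0.50) and with WTp53 (-0.33) against vector, while CD79A rose with WTp53 (0.38) against vector and fell with tethered WTp53 against WTp53 (-0.32). There the mean level of the leukocyte list lay between 6.61 and 6.73 with tethered WTp53, 6.73 and 6.81 with WTp53, and 6.72 and 6.77 with vector. None of the 8 markers of fibroblasts and endothelium passed the test in any of the 6 pairwise comparisons. The part of these markers in the results below was not tested. In sorted but bulk RNA, fewer expressing cells and less RNA per cell cannot be told apart.

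The sequence before the transcription start is shown for the members whose levels changed most or whose window held the closest match to the p53 consensus. RefSeq promoter windows (GRCh38.p14, the 250 bases before each annotated start) matched 6 of the 8 measured members, with 11 windows in all. Each window was searched on both strands for the p53 decamer consensus, and for a full site of a pair of such decamers, 20 bases, separated by a spacer of 0 to 13 bases. Capitals mark the best full-site match in each window, without the spacer, and lower case the rest.
GPX1: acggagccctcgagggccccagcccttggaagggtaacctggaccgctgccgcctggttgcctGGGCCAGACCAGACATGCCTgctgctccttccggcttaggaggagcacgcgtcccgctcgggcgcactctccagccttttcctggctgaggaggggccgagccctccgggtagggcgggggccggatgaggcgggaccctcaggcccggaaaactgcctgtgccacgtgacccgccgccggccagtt
TIGAR: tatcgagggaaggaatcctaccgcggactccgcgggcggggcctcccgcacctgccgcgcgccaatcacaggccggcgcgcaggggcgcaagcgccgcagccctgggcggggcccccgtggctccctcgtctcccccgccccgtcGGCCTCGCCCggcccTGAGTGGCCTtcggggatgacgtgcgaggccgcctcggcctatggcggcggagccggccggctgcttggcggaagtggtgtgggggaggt
TP53I3: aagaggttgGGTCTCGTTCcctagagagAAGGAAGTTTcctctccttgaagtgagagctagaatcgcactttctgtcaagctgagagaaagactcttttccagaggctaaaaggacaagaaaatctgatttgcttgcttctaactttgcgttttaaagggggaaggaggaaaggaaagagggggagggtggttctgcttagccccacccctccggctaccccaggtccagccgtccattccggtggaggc
The GPX1 window lies at chr3:49358354-49358603 on the minus strand, the TIGAR window at chr12:4320963-4321212 on the plus strand, and the TP53I3 window at chr2:24084835-24085084 on the minus strand. GPX1 had the only exact decamer among the 11 windows, a feature found in 5.57% of 35114 windows of the same length. Its full-site match began at position -187 relative to the start, had 2 mismatches and no spacer, and a match with at most 2 mismatches was present in 6.64% of all windows. The best match of TP53I3 had 3 mismatches and a spacer of 9 bases, and a match with at most 3 was present in 34.1% of windows. That of TIGAR had 5 mismatches, and 98.1% of windows held a match at least as close. The GPX1 window was picked as the closest match of 11, whereas these shares are those of a single window. They therefore do not say how unusual the GPX1 match is. These matches describe letters in a window only. The p53 element described for TIGAR lies within its first intron and that described for TP53I3 downstream of its start, both outside the windows printed here.

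With ΔNp53:WTp53 against empty vector, 4 of the 8 measured members rose and 0 fell, where 15.7% of all genes tested rose and 20.3% fell. The 4 were TP53I3, TIGAR, PRODH and SCO2. With WTp53 against vector in the same experiments 3 members rose and 0 fell, against 15.2% and 16.6% of all genes. With the experiment as a replicate block, by which the arrays of the first set are paired, the counts were 5 and 4, through ALDH4A1. TP53I3, TIGAR and PRODH were also the 3 members that rose with tethered WTp53 and with WTp53 in the second set, where 21.6% of all genes rose and 26.2% fell with tethered WTp53, and 17.9% rose and 18.9% fell with WTp53. LPIN1 was in addition 1 member that fell with WTp53 there. The median change over the 8 members was 0.57 for ΔNp53:WTp53, 0.29 for WTp53 of the first set, 0.10 for tethered WTp53 and -0.04 for WTp53 of the second set, beside medians of 0.01, 0.02, 0.00 and -0.02 over all genes. The comparisons within a set share their vector arrays, so the members' values are given side by side and not as independent evidence of each other. Significance throughout is a limma adjusted p (Benjamini-Hochberg over 18417 genes) under 0.05, and 3 arrays against 3 cannot give an exact permutation p under 0.1. Groups of 3 arrays often lie apart: with tethered WTp53 against vector 24.2% of all genes were higher without overlap. A lack of overlap is therefore given below as description, and that share is not given for every comparison.

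**Figure D1:**
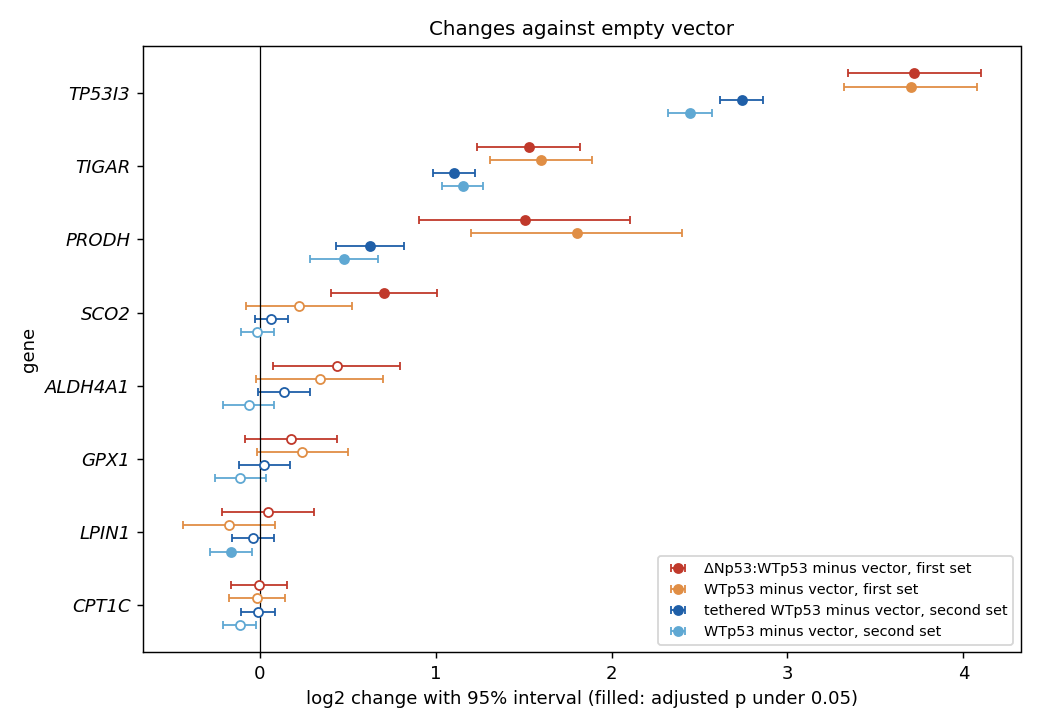
Log2 change against empty vector of the same set with its 95% confidence interval (horizontal axis) for each of the 8 measured genes (vertical axis). The 4 comparisons are ΔNp53:WTp53 and WTp53 in the first set, and tethered WTp53 and WTp53 in the second. Filled symbols passed the limma adjusted p of 0.05. TP53I3 lies between 2.45 and 3.72 and TIGAR between 1.10 and 1.60, while CPT1C, whose levels are below the array medians, stays between -0.11 and 0.00.

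TP53I3 (also called PIG3) is a quinone reductase-like enzyme known as a source of reactive oxygen species, and it had the largest change of the measured members in all 4 comparisons with vector. Its log2 level was 9.97, 10.38 and 10.56 in the 3 ΔNp53:WTp53 arrays and 10.00, 10.46 and 10.40 in the 3 WTp53 arrays, against 6.47, 6.76 and 6.52 in the 3 vector arrays of experiments 0, 4 and 5. Every array with p53 lay far above every vector array, and the arrays of the 2 p53 constructs overlapped. The rise was 3.72 ± 0.17 (SE), or 13.2-fold, with ΔNp53:WTp53 (limma adjusted p = 2.87e-06) and 3.70 ± 0.17 with WTp53 (limma adjusted p = 1.72e-06). Among all genes tested this was the 10th largest rise with ΔNp53:WTp53 and the 8th largest with WTp53.

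In experiments d, e and f TP53I3 had log2 levels of 10.47, 10.33 and 10.30 with tethered WTp53 and 10.05, 10.06 and 10.11 with WTp53, against 7.59, 7.71 and 7.58 with vector. The 3 groups did not overlap, with tethered WTp53 highest and vector lowest. The rise over vector was 2.74 ± 0.06 (6.68-fold, limma adjusted p = 1.28e-10) with tethered WTp53 and 2.45 ± 0.06 (5.45-fold, limma adjusted p = 6e-10) with WTp53.

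GPX1 is the main cytosolic glutathione peroxidase, which removes hydrogen peroxide, and it did not pass the test in any of the 6 pairwise comparisons. Its log2 level was 5.52, 5.75 and 5.86 with ΔNp53:WTp53 and 5.87, 5.78 and 5.67 with WTp53, against 5.71, 5.40 and 5.48 with vector. Its level in experiments d, e and f was 7.63, 7.54 and 7.52 with tethered WTp53 and 7.52, 7.39 and 7.37 with WTp53, against 7.52, 7.66 and 7.43 with vector. The groups overlapped in both sets wherever a p53 construct was set against vector. The differences from vector were 0.18 ± 0.12 with ΔNp53:WTp53, 0.24 ± 0.12 with WTp53 of the first set, 0.03 ± 0.07 with tethered WTp53 and -0.11 ± 0.07 with WTp53 of the second set. Without experiment 0 the differences in the first set passed, at limma adjusted p = 0.0148 for ΔNp53:WTp53 and 0.0476 for WTp53. A second, dimmer GPX1 probe set differed from vector by 0.51 ± 0.19 with WTp53 in the first set and did not pass either (limma adjusted p = 0.0615). GPX1 has processed pseudogenes of near-identical sequence, and how far they add to its probes was not tested.

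TIGAR, a phosphatase that lowers fructose-2,6-bisphosphate and thereby slows glycolysis, rose with every p53 construct. Its log2 level was 9.39, 9.82 and 9.77 with ΔNp53:WTp53 and 9.55, 9.82 and 9.82 with WTp53, against 8.02, 8.13 and 8.23 with vector. The second set gave 10.20, 10.20 and 10.18 with tethered WTp53 and 10.18, 10.26 and 10.29 with WTp53, against 9.20, 9.03 and 9.04 with vector. No p53 array overlapped the vector arrays of its set, and the lowest ΔNp53:WTp53 and WTp53 arrays of the first set both came from experiment 0. The rise was 1.53 ± 0.13 (2.88-fold, limma adjusted p = 3.82e-05) with ΔNp53:WTp53 and 1.60 ± 0.13 (3.03-fold, limma adjusted p = 3.61e-05) with WTp53. With tethered WTp53 it was 1.10 ± 0.05 (2.15-fold, limma adjusted p = 3.61e-08) and with WTp53 of the second set 1.15 ± 0.05 (2.22-fold, limma adjusted p = 7e-08). In rank among rising genes TIGAR stood 380th with ΔNp53:WTp53 and 268th with WTp53 in the first set, well behind TP53I3.

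PRODH, the mitochondrial proline dehydrogenase that takes the first step of proline breakdown and passes electrons to the respiratory chain, was the third member to rise with every construct. Its log2 level was 5.31, 6.38 and 6.33 with ΔNp53:WTp53 and 5.99, 6.26 and 6.66 with WTp53, against 4.46, 4.65 and 4.40 with vector. The level in the second set was 7.77, 7.88 and 7.53 with tethered WTp53 and 7.55, 7.55 and 7.64 with WTp53, against 7.24, 7.0 and 7.06 with vector. All p53 arrays lay above all vector arrays of their set, but the ΔNp53:WTp53 array of experiment 0 stood about 1 log2 unit below the other two. The rise was 1.51 ± 0.27 (2.84-fold, limma adjusted p = 0.00184) with ΔNp53:WTp53 and 1.80 ± 0.27 (3.49-fold, limma adjusted p = 0.000745) with WTp53. It was 0.63 ± 0.09 (1.54-fold, limma adjusted p = 0.000111) with tethered WTp53 and 0.48 ± 0.09 (limma adjusted p = 0.00122) with WTp53 of the second set. The call for ΔNp53:WTp53 was lost without experiment 4 (limma adjusted p = 0.0557) or experiment 5 (0.0531), and that for WTp53 of the second set when all 18 arrays shared a spread (0.148). PRODH has a near-identical pseudogene copy on the same chromosome, and how far its transcripts add to the probes was not tested.

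ALDH4A1, the mitochondrial dehydrogenase that completes proline breakdown to glutamate, did not pass against vector with any construct. Its log2 level was 5.32, 5.54 and 5.66 with ΔNp53:WTp53 and 5.17, 5.56 and 5.49 with WTp53, against 4.79, 5.04 and 5.37 with vector. The groups overlapped through the vector array of experiment 5, whose level exceeded the lowest array of each p53 construct. The differences were 0.44 ± 0.16 (limma adjusted p = 0.0603) with ΔNp53:WTp53 and 0.34 ± 0.16 (limma adjusted p = 0.145) with WTp53. With the experiment as a replicate block both passed, at limma adjusted p = 0.00667 and 0.0248. Without the vector array of experiment 5 the difference was 0.59 with ΔNp53:WTp53 and 0.50 with WTp53, and both also passed, as did that of ΔNp53:WTp53 without its array of experiment 0 (0.53) or without experiment 0 as a whole (0.39). ALDH4A1 in the second set had log2 levels of 7.77, 7.53 and 7.56 with tethered WTp53 and 7.37, 7.52 and 7.37 with WTp53, against 7.48, 7.48 and 7.49 with vector. The tethered arrays lay above the vector arrays without overlap and differed by 0.14 ± 0.07, short of the threshold (limma adjusted p = 0.118). There, the groups of 24.2% of all genes lay apart in that direction.

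SCO2, an assembly factor that delivers copper to cytochrome c oxidase, passed against vector with ΔNp53:WTp53 and not in the other 3 comparisons with vector. Its log2 level was 6.08, 6.41 and 6.51 with ΔNp53:WTp53 and 5.87, 6.004 and 5.70 with WTp53, against 5.50, 5.82 and 5.58 with vector. Every ΔNp53:WTp53 array lay above every WTp53 and vector array, whereas the WTp53 and vector arrays overlapped. The rise with ΔNp53:WTp53 was 0.71 ± 0.14 (1.63-fold, limma adjusted p = 0.00276) and was lost without experiment 5 (0.0647). The difference with WTp53 was 0.22 ± 0.14, with a 95% confidence interval between -0.08 and 0.53 (limma adjusted p = 0.252). The SCO2 level in the second set was 8.11, 8.07 and 8.12 with tethered WTp53 and 8.07, 8.01 and 7.98 with WTp53, against 7.99, 8.04 and 8.07 with vector, and these groups overlapped. The differences from vector there were 0.07 ± 0.04 with tethered WTp53 and -0.01 ± 0.04 with WTp53.

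LPIN1, the phosphatidate phosphatase lipin-1 that also assists the transcription of fatty acid oxidation genes, was the single member to fall. Its log2 level in the second set was 9.77, 9.80 and 9.66 with tethered WTp53 and 9.54, 9.70 and 9.62 with WTp53, against 9.81, 9.75 and 9.79 with vector. The WTp53 arrays lay below all vector arrays, while the tethered arrays overlapped them. It fell by 0.16 ± 0.05 with WTp53 (limma adjusted p = 0.034), in a comparison in which 18.9% of all genes fell, and the difference with tethered WTp53 was -0.04 ± 0.05. The call was lost in all fits without a single array or experiment except those without the WTp53 array of experiment e or without experiment e as a whole, and also with median centring (limma adjusted p = 0.0619) and with 1 spread over all 18 arrays (0.27). In the first set its level was 8.56, 8.29 and 8.13 with ΔNp53:WTp53 and 8.15, 7.99 and 8.17 with WTp53, against 8.38, 8.19 and 8.27 with vector. The differences of 0.05 ± 0.12 and -0.18 ± 0.12 from vector did not pass. The WTp53 arrays of the first set lay below its vector arrays. The share of all genes that lay apart in that direction is not given, and nothing is read from this lack of overlap.

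CPT1C, the neuronal carnitine palmitoyltransferase 1 paralogue of the endoplasmic reticulum, passed in none of the pairwise comparisons. Its log2 level stayed between 3.72 and 3.80 over all 9 arrays of the first set. That is below the array medians (4.89 to 4.97) and near the endothelial genes CDH5 (3.81) and VWF (3.69) with vector. At such a level a lack of change says little about the gene. Over the second set it was 6.56, 6.56 and 6.60 with tethered WTp53 and 6.52, 6.42 and 6.47 with WTp53, against 6.56, 6.63 and 6.56 with vector. There the WTp53 arrays lay below the vector arrays with a difference of -0.11 ± 0.04 (limma adjusted p = 0.0617), which passed without the WTp53 array of experiment d (-0.14), and the tethered arrays overlapped them.

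**Figure D2:**
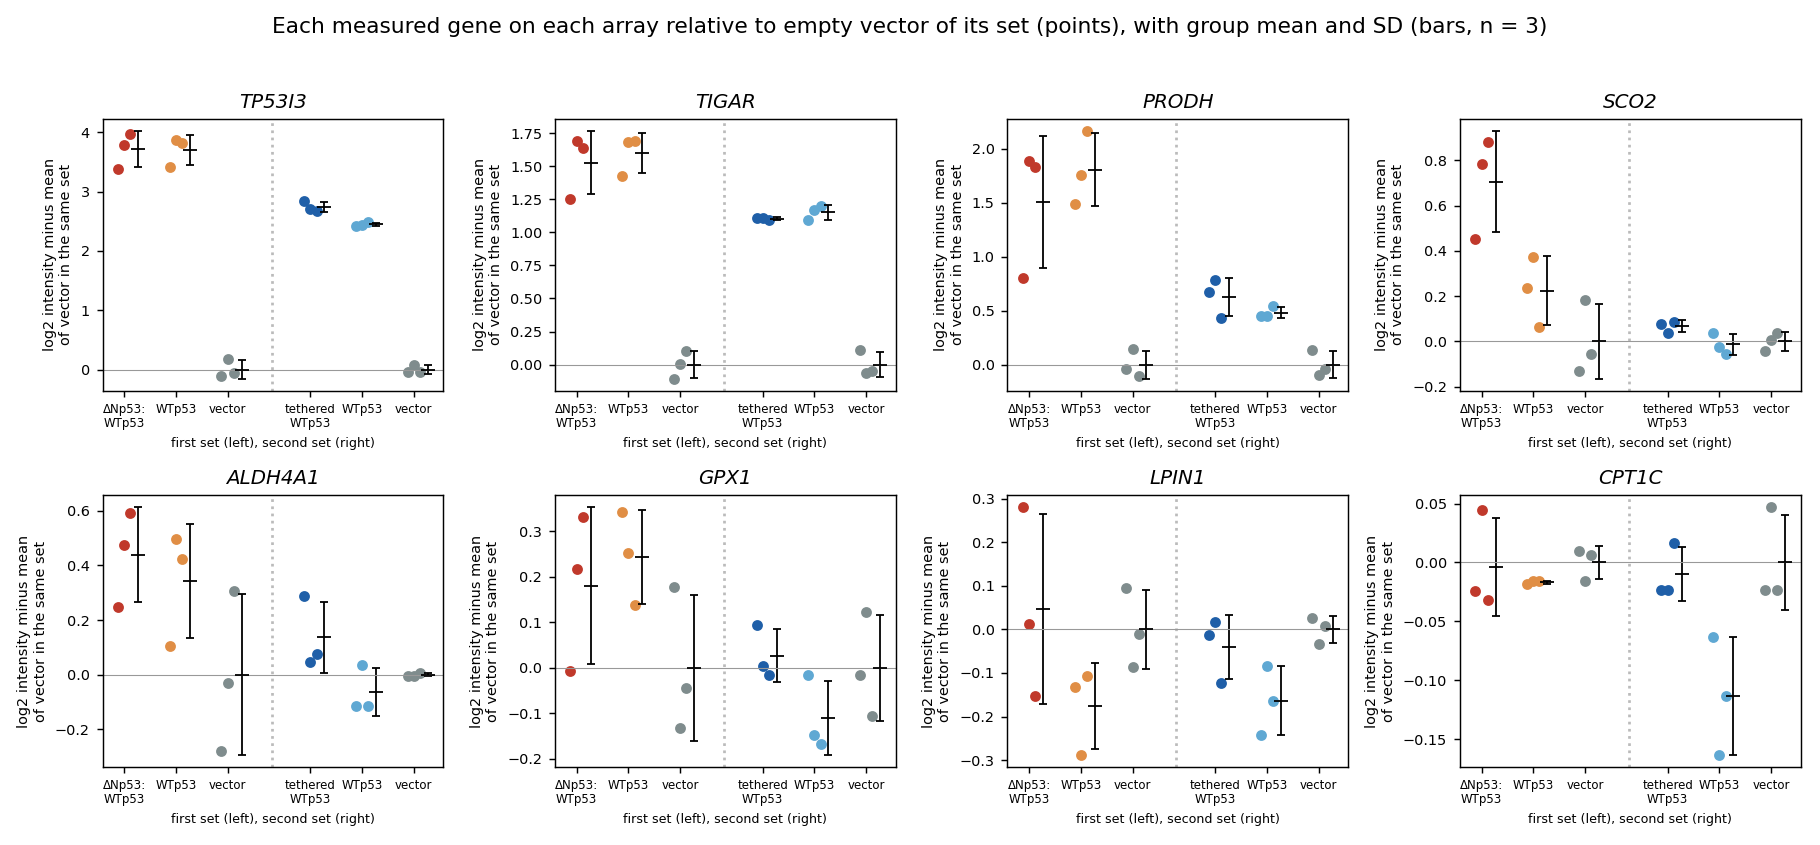
Log2 intensity of each of the 8 measured genes on each of the 18 arrays, relative to the mean of the 3 vector arrays of the same set (vertical axis, log2 units), by group (horizontal axis); bars are group mean and SD, n = 3. TP53I3, TIGAR and PRODH lie above vector in every p53 array. For SCO2 the 3 ΔNp53:WTp53 arrays lie above the WTp53 arrays, as for 9.78% of all genes. That SCO2 difference did not pass (limma adjusted p = 0.0997).

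Setting ΔNp53:WTp53 directly against WTp53 asks whether the mixed construct acted differently on these genes. By limma 0 of the 8 members passed, where 2.44% of all genes were called, and 1 member, SCO2, had an unadjusted p under 0.05. SCO2 was higher with ΔNp53:WTp53 by 0.48 ± 0.14, with a 95% confidence interval between 0.18 and 0.78, and its groups did not overlap (limma adjusted p = 0.0997), as was true, in the direction of higher with ΔNp53:WTp53, of 9.78% of all genes. It passed without experiment 0 (limma adjusted p = 0.0217), without the ΔNp53:WTp53 array of experiment 0 (0.0127), and with 1 spread over all 18 arrays (0.00544). Without experiment 5 the difference was 0.31 and did not pass, and over all 9 fits that left out an array or an experiment the limma adjusted p lay between 0.0127 and 0.661. PRODH differed by -0.30 ± 0.27, with an interval between -0.90 and 0.30, so that neither a lower nor a slightly higher level with ΔNp53:WTp53 was resolved. TP53I3 differed by 0.02 ± 0.17 (interval between -0.36 and 0.40) and TIGAR by -0.07 ± 0.13 (interval between -0.36 and 0.22). The remaining members differed by between -0.06 and 0.22, and none of them passed.

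Tethered against untethered WTp53 in the second set asks what linking the molecules itself changes. Of the 8 members 2 rose and 0 fell, where 14.9% of all genes rose and 17.5% fell. TP53I3 was higher with tethered WTp53 by 0.29 ± 0.06 (1.23-fold, limma adjusted p = 0.00249) and ALDH4A1 by 0.20 ± 0.07 (limma adjusted p = 0.0403). Neither call remained with 1 spread over all 18 arrays (limma adjusted p = 0.189 for TP53I3 and 0.383 for ALDH4A1). The ALDH4A1 call was also lost without the tethered array of experiment d (0.13 on the log2 scale), without either of the WTp53 arrays d and f, and without experiment d or f as a whole. It was lost as well with only the 6 arrays compared (limma adjusted p = 0.088), with median centring (0.0958) and with repeated quantile normalization (0.0864), which brought LPIN1 past the threshold (0.0263), and it passed in 7 of 17 alternatives. TIGAR differed by -0.05 ± 0.05, with an interval between -0.17 and 0.07, and SCO2 by 0.08 ± 0.04. PRODH, GPX1, LPIN1 and CPT1C differed by between 0.10 and 0.15 without passing, and without the tethered array of experiment f PRODH (0.25) and LPIN1 (0.17) did pass. The difference of SCO2 between ΔNp53:WTp53 and WTp53 exceeded that between tethered WTp53 and WTp53 by 0.40 ± 0.13, short of the threshold (limma adjusted p = 0.113). By limma 0 of the 8 members passed this test of the difference between the effects of both constructs, where 2.51% of all genes did, and 1 member, again SCO2, had an unadjusted p under 0.05. Without the ΔNp53:WTp53 array of experiment 0 SCO2 passed it (limma adjusted p = 0.015).

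**Figure D3:**
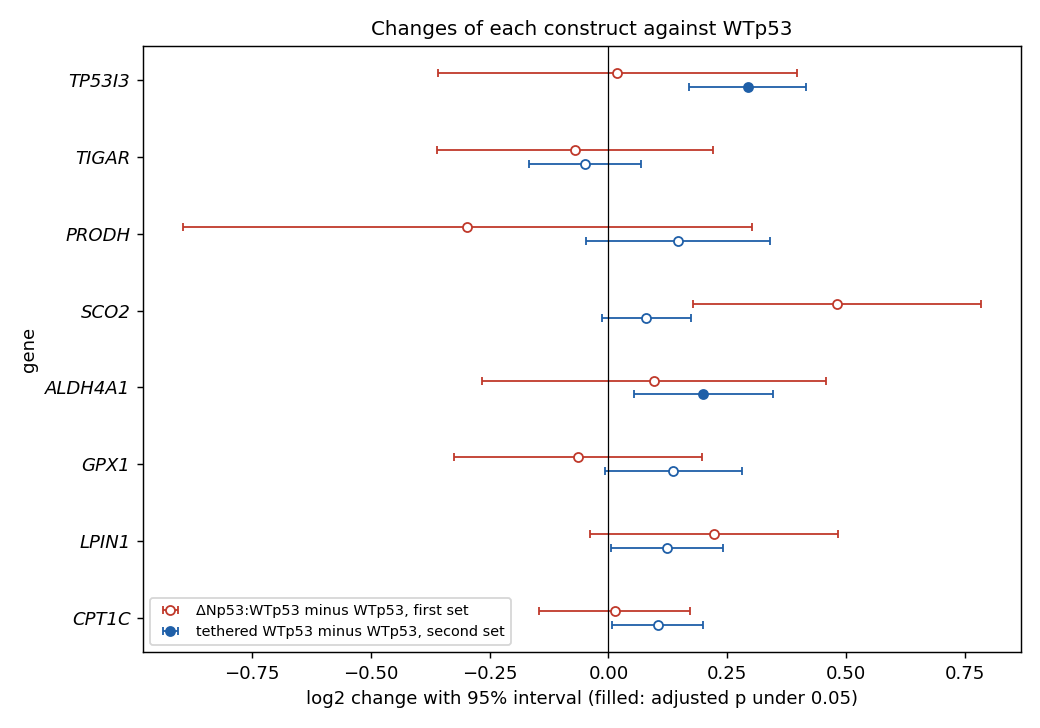
Log2 change of ΔNp53:WTp53 (first set) and of tethered WTp53 (second set) against WTp53 of the same set, with 95% confidence intervals (horizontal axis), for the 8 measured genes (vertical axis); filled symbols passed the limma adjusted p of 0.05. SCO2 lies at 0.48 for ΔNp53:WTp53 and 0.08 for tethered WTp53, and only TP53I3 and ALDH4A1 with tethered WTp53 are filled.

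WTp53 was set against vector in both sets, and the size of its effect could be compared as a difference of within-set changes. The effect was larger in the first set for 3 of the 8 members, TP53I3, PRODH and TIGAR, where 6.25% of all genes were called in that direction. TP53I3 had changes of 3.70 in the first set and 2.45 in the second, PRODH of 1.80 and 0.48, and TIGAR of 1.60 and 1.15. The TIGAR difference (limma adjusted p = 0.041) passed in 7 of 17 alternatives and was lost without weights per set (0.0543) and with values scaled by set (0.156), whereas TP53I3 and PRODH passed in all alternatives run. The remaining 5 members did not pass this test, with differences between -0.01 and 0.40.

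Relatives of the members, which share a family or a metabolic step, were called in both directions. Of the 24 measured relatives 6 rose and 6 fell with ΔNp53:WTp53 against vector, where 15.7% of all genes rose and 20.3% fell. With WTp53 in the first set 7 rose and 3 fell, where 15.2% of all genes rose and 16.6% fell. In the second set 8 rose and 6 fell with tethered WTp53 (21.6% and 26.2% of all genes), and 8 rose and 4 fell with WTp53 (17.9% and 18.9%). The shares that fell lay near those of all genes, and nothing is read from these counts about the relatives as a group. Beside TIGAR, the kinase-phosphatase PFKFB3, which makes the fructose-2,6-bisphosphate that TIGAR removes, rose by 2.16 ± 0.32 with ΔNp53:WTp53 (limma adjusted p = 0.000703) and by 0.94 ± 0.05 with tethered WTp53. PFKFB4 of the same family rose by 0.99 with ΔNp53:WTp53 and by 1.80 with tethered WTp53, whereas PFKFB2 fell by 0.56 with ΔNp53:WTp53 and by 0.51 with tethered WTp53. WTp53 alone gave calls in the same directions. In the first and second set PFKFB3 rose with it by 1.72 and 0.76 and PFKFB4 by 1.17 and 1.57. PFKFB2 fell with it by 0.46 and 0.45.

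Beside SCO2, its paralogue SCO1, the other copper chaperone of the oxidase, fell by 0.98 ± 0.16 with ΔNp53:WTp53 (limma adjusted p = 0.00124) and by 1.19 with WTp53 of the first set. SCO1 also fell in the second set, by 0.53 with tethered WTp53 and 0.43 with WTp53. SCO2 and SCO1 moved in opposite directions with ΔNp53:WTp53, and in the other 3 comparisons with vector SCO1 fell while SCO2 did not pass. Beside GPX1, the endoplasmic reticulum peroxidase GPX8 fell by 1.56 ± 0.28 with ΔNp53:WTp53 (limma adjusted p = 0.00208) and by 1.02 with WTp53 of the first set, and with tethered WTp53 it fell by 0.67. With WTp53 of the second set the GPX8 difference was -0.13 (limma adjusted p = 0.257). Other peroxidases were called the other way: GPX7 rose by 0.32 with WTp53 of the first set, and GPX3 rose by 0.17 with tethered WTp53 and by 0.18 with WTp53 of the second set. Tethered WTp53 had lower GPX8 than WTp53 by 0.54 (limma adjusted p = 0.00059).

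Beside LPIN1, the family member LPIN3 rose by 1.87 ± 0.17 with ΔNp53:WTp53 (limma adjusted p = 5.59e-05), by 2.07 with WTp53 of the first set, by 1.27 ± 0.08 with tethered WTp53 and by 0.76 with WTp53 of the second set. LPIN2 fell by 0.86 with ΔNp53:WTp53 (limma adjusted p = 0.0189) and by 0.33 with tethered WTp53. Across the 4 comparisons with vector LPIN3 rose in each, LPIN2 fell in 3 and LPIN1 fell in 1. Beside CPT1C, the widely expressed CPT1A, the outer-membrane gate of mitochondrial fatty acid oxidation, rose by 1.67 ± 0.14 with ΔNp53:WTp53 (limma adjusted p = 3.82e-05). CPT1A also rose against vector with WTp53, by 1.25 in the first set and 0.45 in the second, and with tethered WTp53 by 0.82. Tethered WTp53 had more CPT1A than WTp53 by 0.37 (limma adjusted p = 0.000347). Beside PRODH and ALDH4A1, PYCR1, which runs the last step of proline synthesis, fell by 0.49 with ΔNp53:WTp53 (limma adjusted p = 0.0253), while its difference with WTp53 of the first set was 0.05. Its direct difference between these constructs did not pass (limma adjusted p = 0.0882). With tethered WTp53 PYCR1 also fell, against vector (-0.18, limma adjusted p = 0.0103) and against WTp53 (-0.23, limma adjusted p = 0.00536). The ferredoxin FDX2, a mitochondrial electron carrier reduced by FDXR, rose by 0.46 ± 0.09 with ΔNp53:WTp53, by 0.58 with WTp53 of the first set, by 0.46 with tethered WTp53 and by 0.34 with WTp53 of the second set. FDX1, CPT2, OAT, ALDH18A1, GLUL, CRYZ and CRYZL1 each passed in 1 or 2 of the 6 pairwise comparisons, with changes between -0.34 and 0.66. PFKFB1, COX11, GPX2, GPX4 and PRODH2 passed in none.

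**Figure D4:**
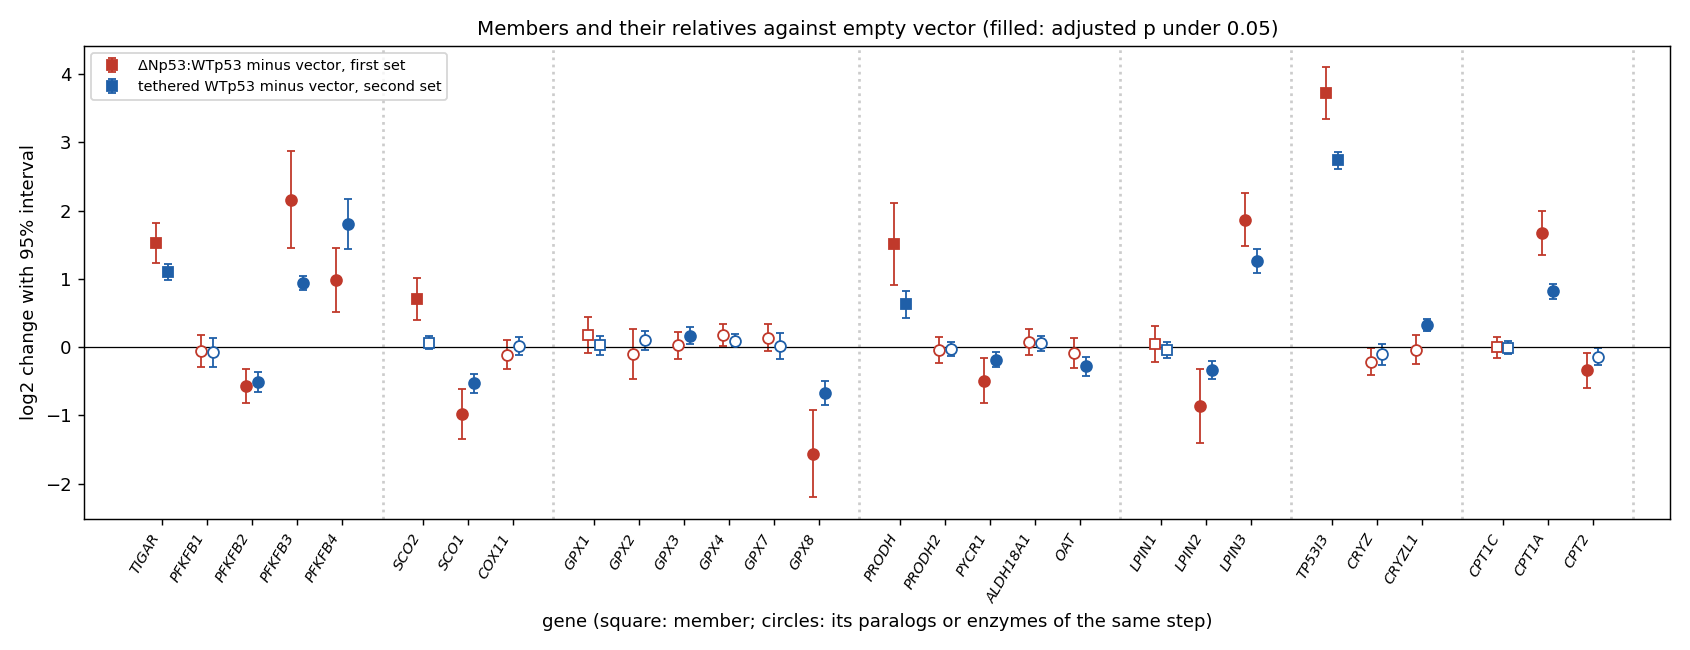
Log2 change against empty vector with 95% confidence interval (vertical axis) for 7 members (squares) and their relatives (circles), by family along the horizontal axis, for ΔNp53:WTp53 in the first set (red) and tethered WTp53 in the second (blue); filled symbols passed the limma adjusted p of 0.05. SCO2 lies at 0.71 and SCO1 at -0.98 with ΔNp53:WTp53, and LPIN1 at 0.05 beside LPIN3 at 1.87.

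Of 23 measured other genes described as induced by p53 in metabolism and redox, 14 rose and 1 fell with ΔNp53:WTp53, where 15.7% of all genes rose and 20.3% fell. With WTp53 of the first set 16 rose and 3 fell (15.2% and 16.6% of all genes), with tethered WTp53 17 rose and 1 fell (21.6% and 26.2%), and with WTp53 of the second set 18 rose and 2 fell (17.9% and 18.9%). Their median change was 0.92, 1.11, 1.07 and 0.72 in that order, beside medians between -0.02 and 0.02 over all genes. This list and the list of repressed genes below were also chosen with earlier results of these data known. SESN1, a stress-induced sestrin, rose by 2.83 ± 0.13 with ΔNp53:WTp53 and TP53INP1, an antioxidant and autophagy factor, by 3.59 ± 0.22. PANK1, which starts coenzyme A synthesis, rose by 1.78 ± 0.17 with the same construct. SESN1, TP53INP1 and PANK1 rose by 3.32, 3.50 and 1.97 with WTp53 of the first set. Between ΔNp53:WTp53 and WTp53, RRM2B, the p53-inducible ribonucleotide reductase subunit, was the 1 of the 23 that passed, with a change of -0.55 ± 0.09 (limma adjusted p = 0.0166). The test of that difference against the tethered effect passed for 2 of the 23, RRM2B (-0.55 ± 0.11, limma adjusted p = 0.00977) and PRKAB1, a subunit of AMP-activated kinase (-0.48 ± 0.09, limma adjusted p = 0.0113).

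Of 9 measured genes described as repressed by p53, 3 rose and 1 fell with ΔNp53:WTp53 (15.7% and 20.3% of all genes) and 2 rose and 2 fell with WTp53 of the first set (15.2% and 16.6%). With tethered WTp53 5 rose and 2 fell (21.6% and 26.2%), and with WTp53 of the second set 5 rose and 1 fell (17.9% and 18.9%). SLC7A11, the cystine importer that feeds glutathione synthesis, fell by 1.91 ± 0.24 with ΔNp53:WTp53 (limma adjusted p = 0.000275) and by 1.40 ± 0.04 with tethered WTp53. The cytosolic malic enzyme ME1 rose by 0.70 ± 0.10, the glucose transporter SLC2A1 by 0.67 ± 0.11 and the mitochondrial coactivator PPARGC1A by 1.08 ± 0.15 with ΔNp53:WTp53.

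As a description of pattern, the gene most like each member was taken by Pearson's r over the 18 arrays, with values centred on the vector mean of their set. The 18 arrays include p53 and vector groups and share their vector arrays, so that r is given with no p. TP53I3 was most like POPDC1 (r = 0.997), TIGAR most like KITLG (0.99), PRODH most like ALG9 (0.98) and SCO2 most like SRI (0.95). For ALDH4A1, GPX1, CPT1C and LPIN1 the nearest genes were TBC1D1, OR10D1P, CHRNA2 and BMP4, with r of 0.94, 0.93, 0.86 and 0.83.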

How the data were processed

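RNA of 18 transfected, sorted NCI-H1299 samples (6 groups of 3, by title) was hybridised to Affymetrix Gene arrays. The deposited values are log2 intensities that the authors normalized with RMA in Affymetrix Expression Console, per the submitters' processing notes, in versions not given in the sources used here; the 2 sets differ in scale and decimals and were treated as normalized apart. Of 33297 probe sets 19460 have 1 symbol, 1754 several and 12083 none or are not listed; symbols were taken from GEO's platform annotation and 0 had to be changed. For the 769 genes with several probe sets the one with the highest mean was used. The probe set of the transfected gene is not reported here.

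Each set of 9 arrays had its own limma fit (limma 3.58.1 in R 4.3.3; group means, 6 residual degrees of freedom, no filter on dim genes), because the spread differs between the sets. Differences between effects of the 2 sets used all 18 arrays with 1 weight per set (12 residual degrees of freedom). Tests were two-sided, adjusted over 18417 genes by Benjamini-Hochberg, with a threshold of 0.05. Some of them were also run on simulated data with independent noise on each array. Those data hold no pairing by experiment and cannot check its effect. Depth does not apply to arrays; their number limits the precision. Experiment labels pair the arrays of the first set: residuals of the same experiment correlated between 0.11 and 0.57 in all pairs of groups. Those of different experiments correlated between -0.50 and 0.35, which overlaps that range. The main fit has no replicate block, which is an alternative. In the second set the range within an experiment was -0.04 to 0.13, and between experiments -0.21 to 0.16. These ranges overlap too, and they cannot decide whether those arrays share more than a label.

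Named were all members, CDKN1A and MDM2, up to 6 genes with the smallest p per list and comparison, relatives beside their member, and the 1 gene most like each member. The members and lists were chosen with earlier results of these data known. Alternatives were the arrays sharing a spread, the replicate block, weights per array, trended robust eBayes, median centring, repeated quantile normalization, the dim filter, the dimmer probe set, scaling by set and leaving out arrays or experiments.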

Additional observations from a re-analysis of the deposited data

Results flagged for a closer look

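For 3 members the change with WTp53 against vector differed between both sets of experiments by a test of the difference itself, with all 18 arrays in 1 limma fit and a weight per set. The WTp53 effect on TP53I3 was larger in the first set than in the second by 1.25 ± 0.17 on the log2 scale (limma adjusted p = 0.00045). For PRODH it was larger by 1.32 ± 0.27 (limma adjusted p = 0.00488), and for TIGAR by 0.45 ± 0.14 (limma adjusted p = 0.041). All 3 of 8 were larger in the first set, where 6.25% of all genes were called in that direction, and CDKN1A (1.49) and MDM2 (1.30) were larger there too. The sets also differ in scale: with the values of each set divided by the SD of its gene means, the TIGAR difference was 0.15 and did not pass (limma adjusted p = 0.156), while PRODH and TP53I3 passed in all alternatives run. TIGAR was also lost without weights (0.0543) and without any of 8 of the 12 arrays involved: all 3 vector arrays, and WTp53 arrays 4 and 5, of the first set, and vector array d and WTp53 arrays d and e of the second. The part of transfection, normalization or the arrays' scale in these differences was not tested.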

How the results depend on the processing

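The rises of TP53I3 and TIGAR against vector passed in all alternatives run in all 4 comparisons, and 447 of 480 member values outside the fits that leave out arrays kept their direction and side of the threshold. With weights per array 6 members were called for ΔNp53:WTp53 against vector, against 4, through GPX1 (limma adjusted p = 0.0137) and ALDH4A1 (0.0156), and with all 18 arrays in 1 fit 5, through ALDH4A1 (0.0108). ALDH4A1 also passed for WTp53 against vector in the first set with all 18 arrays (0.0443). Weights per array gave 5 for WTp53 against vector in the first set, against 3, and 1 for ΔNp53:WTp53 against WTp53, against 0, as did all 18 arrays in 1 fit. With all 18 arrays in 1 fit the count was 2 in place of 4 for WTp53 against vector in the second set and 0 in place of 2 for tethered WTp53 against WTp53. That last count was 1 with only the 6 arrays compared, with the replicate block and with median centring. The block lost ALDH4A1 there (limma adjusted p = 0.0559). The dim filter removed ALDH4A1 before testing, and 1 of the 4 members left was called. Genes called between ΔNp53:WTp53 and WTp53 numbered 449, against 2693 with all 18 arrays, 96 with 6 arrays, 806 with the replicate block and 4522 with weights per array. With all 18 arrays they numbered 3603 in place of 6769 for WTp53 against vector in the second set and 1855 in place of 5970 for tethered WTp53 against WTp53. The replicate block of the first set added calls for ALDH4A1 against vector and changed no other member's call there. Leaving out arrays or experiments gave 2 to 6 members called for ΔNp53:WTp53 against vector (2 without experiment 5, 6 without experiment 0), 3 to 4 for WTp53 against vector in the first set, 0 to 1 for ΔNp53:WTp53 against WTp53, 3 to 3 for tethered WTp53 against vector, 3 to 4 for WTp53 against vector in the second set, 1 to 4 for tethered WTp53 against WTp53, 0 to 1 for the difference of construct effects and 2 to 3 for the difference of WTp53 effects. Genes called ranged between 1871 and 8101, 2111 and 7029, 0 and 2461, 7058 and 8570, 5095 and 6240, 3236 and 5789, 131 and 980, and 1009 and 2760 in the same order. Signs changed in 10 values outside those fits, none past the threshold on either side: with weights per array, CPT1C 0.0357 (ΔNp53:WTp53 against vector) and PRODH 0.0149 and TIGAR 0.0226 (ΔNp53:WTp53 against WTp53); with quantile normalization, GPX1 -0.02 and LPIN1 0.0109 (tethered WTp53 against vector), TIGAR 0.0011 (tethered WTp53 against WTp53) and LPIN1 0.0524 (difference of WTp53 effects, 0.0026 with values scaled by set); GPX1 against vector with tethered WTp53 was -0.0033 with median centring and -0.0467 with the dimmer probe set. Signs that changed on leaving out arrays were, for ΔNp53:WTp53 against vector, LPIN1 (-0.0701 to 0.1459) and CPT1C (-0.036 to 0.0131); for ΔNp53:WTp53 against WTp53, TIGAR (-0.158 to 0.0655), GPX1 (-0.1918 to 0.0792), ALDH4A1 (-0.0222 to 0.1909), PRODH (-0.5088 to 0.0534), TP53I3 (-0.1249 to 0.1843) and CPT1C (-0.0113 to 0.0272); for tethered WTp53 against vector, GPX1 (-0.0267 to 0.1), LPIN1 (-0.085 to 0.005) and CPT1C (-0.035 to 0.02); for WTp53 against vector in the second set, SCO2 (-0.06 to 0.025); for the difference of construct effects, TIGAR (-0.108 to 0.1155) and LPIN1 (-0.0177 to 0.1982); and LPIN1 for the difference of WTp53 effects (-0.0553 to 0.0439). The cause was not tested. Fits of fewer arrays have fewer residual degrees of freedom.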
